A study of Caenorhabditis elegans with 2 samples.

Results

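Mitochondrial ribosomal protein genes encode the protein subunits of the ribosome inside mitochondria, and in the nematode Caenorhabditis elegans they are named mrpl- for the large subunit and mrps- for the small one. Members of the set here were taken by symbol alone, but the set was chosen with earlier results of these data known. It held 71 protein-coding genes of the WBcel235 annotation, of 19985 in all. Of these, 42 belong to the large subunit and 29 to the small one. Binding was taken from ChIP-seq peak lists of CEH-83, the product of a homeobox gene, and a gene counted as bound when the summit of a peak lay between 1000 bp upstream and 200 bp downstream of its start.

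The chromatin came from embryos of mixed stages and pooled sexes of the strain OP727, whose genotype is unc-119(tm4063) with the integrated transgene wgIs727, which joins ceh-83 to TY1, EGFP and 3xFLAG tags and brings along unc-119(+). Both libraries carry the transgene, so no group lacks the tagged protein, and the labels give an age of 1 hour, egg bleaching as the synchronization and an immunoprecipitation against GFP, while the antibody field reads ceh-83. What drives the transgene, and whether the untagged ceh-83 gene is still active, the labels do not say. The 2 biological replicates formed 1 group, with 1 list of 30000 regions each and 1 list of 30000 regions from both pooled. A further list held 1258 peaks that passed the irreproducible discovery rate (IDR), a measure of how well ranks recur between libraries. A peak in it need not rank high in each library. Of the 469 IDR peaks in promoter windows, 58.6% were among the highest 1258 regions of both replicates, by summits within 100 bp. No read totals come with the lists, so the depth of the libraries is unknown. A bound gene is therefore one with an IDR peak, and whether CEH-83 itself is there was not tested. Embryos are mixtures of cells, in which binding in more cells and stronger binding per cell cannot be told apart.

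The mitochondrial ribosome translates the few proteins encoded by mitochondrial DNA, which are core subunits of the respiratory chain. Its RNAs come from the organelle, but all its proteins are encoded in the nucleus, made in the cytoplasm and imported. In C. elegans, lowering the small subunit gene mrps-5 is known to switch on the mitochondrial unfolded protein response and to lengthen life. Many of these genes lie in operons, where a gene downstream of another is expressed from the promoter of the first.

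The sequences under 5 of the 7 bound summits are shown first, so that the bases at the bound positions can be set beside one another. They are 101 bp windows of the WBcel235 (ce11) genome centred on each IDR summit, written along the strand of the gene, and of mrpl-1 where mrpl-1 and mrps-24 share a summit. Capitals mark matches on either strand to the homeodomain sequence TAATTA, the GA repeat GAGAGA, the Sp1 core GGGCGG, the splice acceptor TTTCAG, the T run TTTTTT, the tRNA B box core GTTCGA or the E-box CACGTG. Sequences of the summits at mrpl-23 and mrpl-17 are not printed.
mrps-9 at chrIII:8265942-8266042, plus strand: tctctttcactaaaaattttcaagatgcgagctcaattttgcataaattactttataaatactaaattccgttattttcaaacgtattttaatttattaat
mrps-12 at chrV:20837962-20838062, plus strand: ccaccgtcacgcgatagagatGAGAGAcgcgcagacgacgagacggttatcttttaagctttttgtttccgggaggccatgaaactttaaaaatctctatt
mrpl-45 at chrIII:1202346-1202446, minus strand: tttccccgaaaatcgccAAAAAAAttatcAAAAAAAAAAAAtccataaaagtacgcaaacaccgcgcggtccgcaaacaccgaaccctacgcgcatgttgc
mrpl-1 and mrps-24 at chrIV:7709854-7709954, minus strand: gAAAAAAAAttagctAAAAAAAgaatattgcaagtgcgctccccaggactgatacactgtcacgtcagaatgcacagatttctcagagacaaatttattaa
mrps-23 at chrIII:9523701-9523801, minus strand: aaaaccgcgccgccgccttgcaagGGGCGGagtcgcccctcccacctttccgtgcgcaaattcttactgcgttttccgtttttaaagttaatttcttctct
The window at mrps-9 was the richest in A and T of the 5, with 21.8% G and C, and it held no match in capitals. The window at mrps-23 had 52.5% and held GGGCGG. Those at mrps-12, mrpl-45 and the shared summit of mrpl-1 and mrps-24 had 45.5%, 43.6% and 35.6%. The shared summit and the mrpl-45 summit had runs of A on the printed strand, which are TTTTTT on the other.

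CEH-83 peaks were present at 8 mitochondrial ribosomal protein genes, 4 of each subunit, and the 8 genes had 7 peaks between them. The large subunit genes were mrpl-23, mrpl-45, mrpl-1 and mrpl-17, and the small subunit genes were mrps-9, mrps-12, mrps-24 and mrps-23. The strongest peak, at mrpl-23, lay on a small nucleolar RNA gene far upstream of the gene start, while the other 6 stood 48 to 388 bp upstream of a member and at no tRNA, snoRNA or snRNA gene. The signal of these 6 ran from 192 to 246, against a range of 190 to 1777 over all IDR peaks. Signal here is the authors' own value for a region, measured against a control, and is comparable within a list only. Each of the 7 peaks was 444 bp wide, and the labels give sonication to 200 to 800 bp. Distances below are those of the called summits and do not place a binding site to the base.

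Of the 71 genes, 41 (57.7%) had any summit of the pooled list in the promoter window, against 35.7% of all protein-coding genes. Only such genes could be called bound, and among them 8 of 41 were (19.5%, 95% Clopper-Pearson interval 8.82 to 34.9), against 603 of 7129 over all protein-coding genes (8.46%). Without replicate 1 it was 3 of 37 (8.11%), against 8.02% of all genes. The interval covers counting error over genes only, and genes that share a peak are counted separately in it. Over all 71 members the bound share was 11.3% (4.99 to 21.0), against 3.02% over all genes. The large subunit had 4 of 24 genes with a pooled summit bound (16.7%, 4.74 to 37.4) and the small subunit 4 of 17 (23.5%, 6.81 to 49.9), and these intervals overlap. Without replicate 1 these were 2 of 22 and 1 of 15. No set test was run, and the counts are a description.

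The bound members stood mostly in the lower part of the IDR list. By rank in the pooled list, 2 of 41 members with a summit were among the highest 629 regions (4.88%, against 4.59% of all genes with one), and 8 were among the highest 1258. Past the IDR list, 12 of 41 (29.3%, against 14.3%) were among the highest 2500 regions and 25 of 41 (61.0%, against 41.9%) among the highest 10000. The highest pooled signal in the window had a median of 122 over the 41 members and 112 over the 7129 genes.

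**Figure D1:**
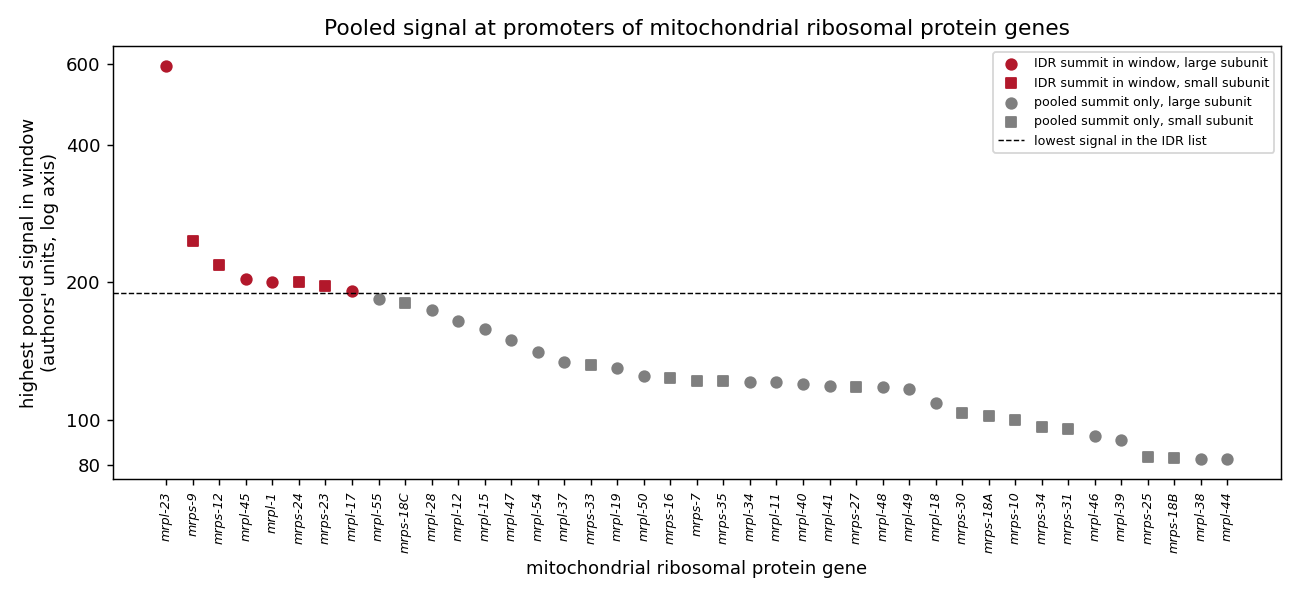
Highest pooled signal in the promoter window (vertical log axis, authors' units) for each of the 41 mitochondrial ribosomal protein genes with a pooled summit, in order of signal. Circles are large subunit genes, squares small subunit genes, red points are bound and grey ones are not, and the dashed line is the lowest signal in the IDR list (190). mrpl-23 stands alone at 595, and the next value is 246 at mrps-9.

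Among the small subunit genes, mrps-9 had the highest peak. Its product corresponds to bacterial S9, whose tail reaches the peptidyl tRNA site. The peak spanned chrIII:8265770-8266213 with a signal of 246 (rank 505 of 1258), and its intergenic summit stood 70 bp upstream of the gene start and in the window of no other protein-coding gene. Replicate 2 had a region 28 bp from the summit with a signal of 142 (rank 419 of 30000). The nearest region of replicate 1 was 102 bp away, with a signal of 117 and rank 543. Both libraries thus had a region among their own highest 1258 within 102 bp of the summit. The gene ncr-2, related to the human cholesterol transporter of Niemann-Pick disease, ends 257 bp upstream on the same strand.

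mrps-12 encodes the counterpart of bacterial S12, a protein of the decoding centre. Its peak, chrV:20837790-20838233, had a signal of 218 (rank 737) and an intergenic summit 68 bp upstream of the gene start. The same summit was 853 bp upstream of exos-7, a homologue of an RNA exosome subunit, which follows mrps-12 on the same strand. Replicate 1 ranked its region at 546 with a signal of 116 and replicate 2 at 1367 with 102, so the region was among the highest 1258 of replicate 1 only. The numb homologue num-1 ends 461 bp upstream.

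mrps-24 and mrpl-1 shared 1 peak. MRPL-1 corresponds to bacterial L1, the protein of the mobile stalk through which spent tRNA leaves the ribosome. MRPS-24 is a small subunit protein whose mammalian counterpart lies at the mRNA entry side. Their peak, chrIV:7709682-7710125, had a signal of 200 (rank 1004), and its intergenic summit stood 141 bp upstream of mrps-24, 168 bp upstream of emc-6, a subunit of the membrane protein insertion complex of the endoplasmic reticulum, and 203 bp upstream of mrpl-1. mrps-24 runs away from the other two, so the summit lies between divergent genes. The gene start of mrpl-1 is that of its longer transcript, and the summit was 820 bp upstream of the shorter one. This peak differed most between libraries, with rank 534 in replicate 1 (signal 117) and rank 2839 in replicate 2 (signal 87.3).

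mrps-23 encodes a small subunit protein and lies inside prp-40, a pre-mRNA splicing factor gene on the opposite strand. The peak, chrIII:9523529-9523972, had a signal of 196 (rank 1084), and its summit lay in an intron of prp-40, 79 bp upstream of mrps-23. The start of prp-40 itself is outside the window, but an internal transcript start of prp-40 lay 203 bp downstream of the summit. Replicate 1 ranked the region at 872 (signal 102) and replicate 2 at 2054 (signal 93.5). All 4 small subunit summits stood between 68 and 141 bp upstream of the gene start.

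The large subunit summits were spread more widely, from 48 to 933 bp upstream. MRPL-23 is the counterpart of bacterial L23, which lines the exit of the peptide tunnel. The peak in its window, chrI:6212596-6213039, had a signal of 595 and rank 72, and ranks of 89 and 65 in replicates 1 and 2 (signals 264 and 329). Its summit was 933 bp upstream of mrpl-23 and lay within fars-1, a cytoplasmic phenylalanyl-tRNA synthetase gene that ends 96 bp before mrpl-23 on the same strand. It stood 6 bp inside the snoRNA gene T08B2.13, which is 129 bp long, and also in the overlapping non-coding RNA gene T08B2.14. This peak was the only one of the 7 in the highest 1258 of both replicates by summits within 100 bp. Whether the signal there has any relation to mrpl-23 was not tested.

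mrpl-45 encodes a large subunit protein that in mammals holds the ribosome to the inner membrane near the tunnel exit. Its peak, chrIII:1202174-1202617, had a signal of 204 (rank 925), and ranks of 1006 and 1332 in replicates 1 and 2 (signals 98.8 and 103). The summit was intergenic, 388 bp upstream of mrpl-45 and 150 bp upstream of the divergent gene Y119D3B.12. It was the only one of the 7 peaks whose nearest protein-coding gene start belonged to another gene.

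mrpl-17 encodes the counterpart of bacterial L17, near the tunnel exit. Its peak, chrI:3162543-3162986, was the lowest of the set with a signal of 192 (rank 1204). The intergenic summit stood 48 bp upstream of mrpl-17, 374 bp upstream of the divergent gene vbh-1, a germline RNA helicase related to Vasa and Belle, and 923 bp upstream of Y54E10A.6, which follows mrpl-17. Replicates 1 and 2 ranked the region at 1477 and 1510 (signals 90.4 and 100), so neither alone placed it in the highest 1258. In all, the summits of 4 of the 7 peaks also lay in the window of a gene outside the set.

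The summits of bound members had a median offset of -110 bp from the gene start (interquartile range -249 to -69.5), against -274 bp (-530 to -126) over all bound genes. All 8 were upstream, as were 555 of all 603 bound genes (92.0%), and 6 of 8 (75%) were within 250 bp upstream, against 232 of 603 bound genes (38.5%). The limit of 250 bp was not set in advance. Genes that share a summit are each counted, as mrpl-1 and mrps-24 are here. With 7 peaks the spread is wide, and the difference in offset was not tested. The bound cytoplasmic ribosomal protein genes, the set most like this one, had a median offset of -317 bp, with 6 of 21 within 250 bp upstream. They were bound in 21 of 67 cases with a pooled summit (31.3%), and 1 of the 21 had its peak at a small RNA gene.

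**Figure D2:**
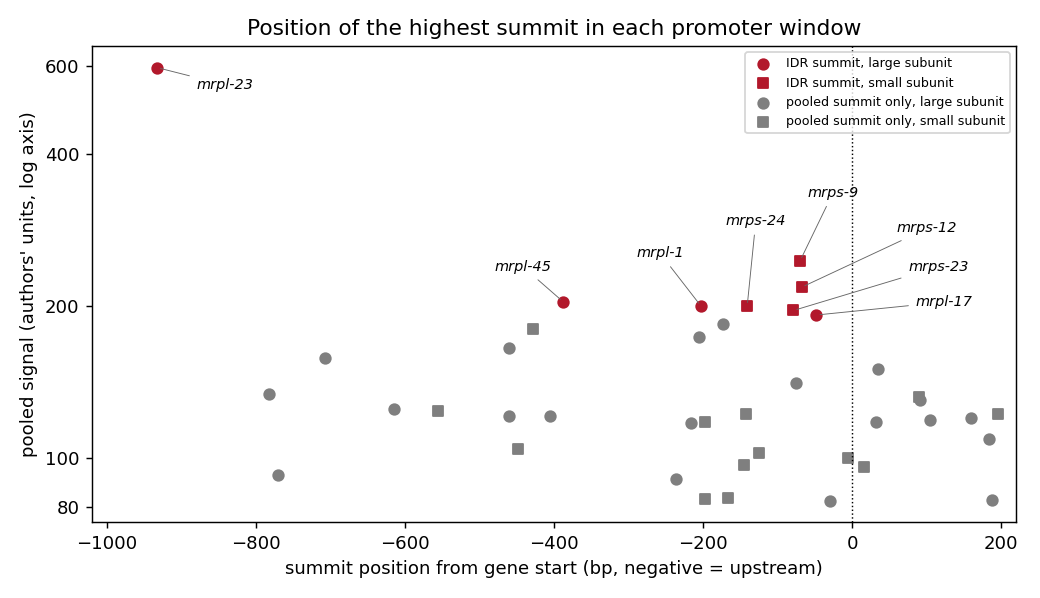
Position of the highest pooled summit in each member's promoter window (horizontal axis, bp from the gene start, negative upstream) against its signal (vertical log axis, authors' units) for 41 genes. Red points are bound genes, with names, and grey points are not bound. 6 of the 8 red points lie within 250 bp upstream of the start, and mrpl-23 lies at -933 bp.

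The libraries differed at the bound members. By a summit within 100 bp, 5 of the 7 peaks were among the highest 1258 regions of replicate 1, 2 among those of replicate 2 and 1 among both. Over the 469 IDR peaks in promoters the shares were 77.8% in replicate 1, 76.3% in replicate 2 and 58.6% in both. Recurrence was lower further down the IDR list: of the 221 promoter peaks ranked below the highest 629, 23.5% were in both, and of the 5 member peaks there, 0 were. With 7 peaks no statement on the libraries in general can be drawn from these counts.

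**Figure D3:**
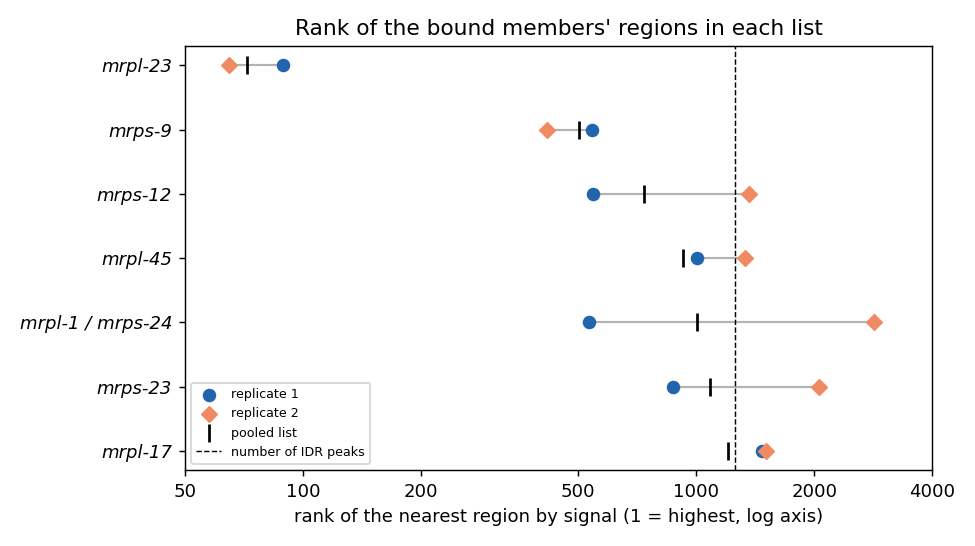
Rank by signal (horizontal log axis, 1 is the highest of 30000) of the region nearest to each bound member's summit in replicate 1 (blue circles), replicate 2 (orange diamonds) and the pooled list (black ticks). The dashed line marks rank 1258. The regions at mrpl-23 and mrps-9 lie left of the line in both replicates, and at mrpl-17 in neither.

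The share of bound members was near that of all genes in the replicate 2 list and higher in the replicate 1 list. When the 1258 highest regions of replicate 2 alone were used, 3 of 37 members were bound (8.11%), against 8.02% of all genes, and these were mrpl-23, mrps-9 and mrpl-55. With replicate 1 alone, 7 of 41 were (17.1%, against 8.6%), and mrpl-17 was the one lost. Of the members lost in replicate 2, mrpl-45, mrps-12 and mrpl-17 had ranks of 1332, 1367 and 1510 there, not far past the cut. mrps-23 had rank 2054, and the shared region of mrpl-1 and mrps-24 had rank 2839. Among the 629 IDR peaks of higher signal, 2 of 41 members were bound (4.88%, against 4.59%). Without peaks at tRNA, snoRNA and snRNA genes mrpl-23 was lost, which left 7 of 41 (17.1%, against 7.38%). A narrower window, reaching 500 bp upstream and 100 bp downstream, gave 7 of 30 (23.3%, against 9.49%) and a wider one, reaching 2000 bp and 500 bp, gave 12 of 53 (22.6%, against 8.24%). Counting any overlap of a peak with the window gave 11 of 49 (22.4%, against 8.14%), and any annotated transcript start 8 of 42 (19.0%, against 8.81%). Adding the window of the first gene of a close same-strand chain gave 10 of 51 (19.6%, against 9.9%). The members' share thus lay near that of all genes in the replicate 2 list and among the stronger peaks.

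**Figure D4:**
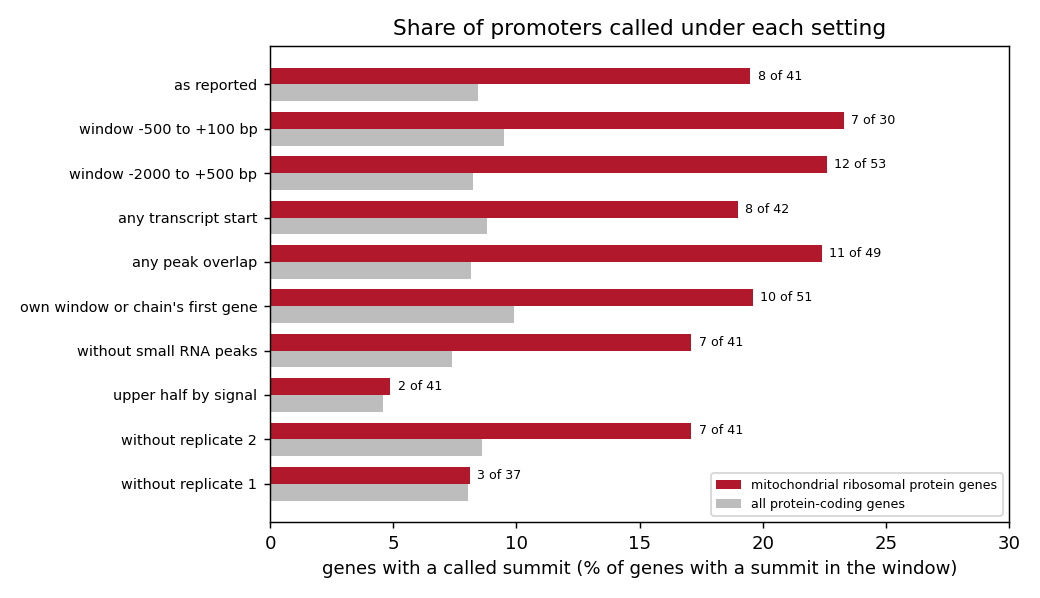
Share of genes with a called summit among genes with any summit in the window (horizontal axis, percent), for mitochondrial ribosomal protein genes (red, with counts) above all protein-coding genes (grey), under 10 settings. The red bar is longer than the grey one by 8.47 to 14.4 percentage points in 8 settings, and by 0.291 points for the upper part of the IDR list by signal and 0.0871 points without replicate 1.

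The 33 members with a pooled summit but no IDR summit ran from just under the IDR list to its far end. The nearest miss was mrpl-55, a large subunit protein of animal mitochondria, with a pooled signal of 184 (rank 1420) against 192 at mrpl-17 on the other side. It ranked 1237 in replicate 2 and 3034 in replicate 1, and was the one unbound member among the highest 1258 of either library. mrps-18C, one of several genes for S18-like proteins, followed with 180 (ranks 2662 and 1830 in replicates 1 and 2), then mrpl-28 with 174 (1662 and 4281). Next was mrpl-12, the factor-binding stalk protein, with 165 (4957 and 2363 by summits within 100 bp). Elsewhere in the mrpl-12 window replicate 1 had a region of rank 1988. mrpl-15 and mrpl-47 had 158 and 150, with ranks of 1977 and 1777 in replicate 1 and 9477 and 8771 in replicate 2. mrpl-54, mrpl-37, mrps-33 and mrpl-19 had 141, 134, 132 and 130. In all, 7 unbound members were among the highest 5000 regions of the pooled list, and the lowest, mrpl-44, was at rank 29727. With the bound ones, 15 of 41 members were among the highest 5000 (36.6%), against 1740 of 7129 genes (24.4%). Of the 33, 23 had a summit in the window in both replicate lists, a share that was not counted over all genes.

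The other 30 members had no pooled summit in the window, 18 of the large subunit and 12 of the small one. The large subunit genes were mrpl-2, mrpl-4, mrpl-9, mrpl-10, mrpl-13, mrpl-16, mrpl-20, mrpl-21, mrpl-22, mrpl-24, mrpl-30, mrpl-32, mrpl-35, mrpl-36, mrpl-42, mrpl-51, mrpl-53 and mrpl-58. The small subunit genes were mrps-2, mrps-5, mrps-6, mrps-11, mrps-14, mrps-15, mrps-17, mrps-18.C, mrps-21, mrps-22, mrps-26 and mrps-28. They include the longevity gene mrps-5 and mrpl-10, whose product anchors the stalk. Of the 30, 24 had no summit in either replicate list, 3 had one in replicate 1 and 3 in replicate 2. These shares were not counted over all genes. At those 24 genes no region was detectable in these lists, which is no measure of absence.

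A protein-coding gene on the same strand ended at most 500 bp upstream of 28 of 71 members (39.4%), against 18.1% of all protein-coding genes. Genes of an operon lie close behind one another in C. elegans, but operons were not looked up here. Such a neighbour was found for 18 of 30 members without a pooled summit (60%), for 10 of 41 with one (24.4%) and for 3 of 8 bound ones (mrpl-23, mrps-9 and mrps-12). Over all genes the share was 18.0% without a pooled summit, 18.3% with one and 15.8% of the bound ones. Divergent neighbours, whose start lay at most 1000 bp upstream on the other strand, were found for 4 of 8 bound members (50%), 17 of 41 with a pooled summit (41.5%) and 26 of 71 in all (36.6%), against 39.1% of all bound genes, 22.1% of all genes with a pooled summit and 17.7% of all genes.

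The 8 sequences searched at the summits were chosen by name, and their matches are a description. Beside the 7 marked above, the eighth was TAAT, a core read by many homeodomains, which also lies within the longer homeodomain sequence. It was within 50 bp of 6 of the 7 member summits, all but that of mrps-12, against 39.7% of the 469 IDR summits in promoters and 59.9% of 6738 pooled promoter regions at least 500 bp from any IDR summit. TAATTA was at 0 of 7, against 2.13% and 4.99%. TTTTTT was at 3 of 7 (mrpl-45, the summit of mrpl-1 and mrps-24, and mrpl-17), against 27.3% and 39.0%. GAGAGA was at 1 of 7 (mrps-12), against 14.7% and 8.0%, and GGGCGG at 1 of 7 (mrps-23), against 7.68% and 3.03%. The splice acceptor TTTCAG, the B box core GTTCGA and the E-box CACGTG were each at 0 of 7, against 8.74%, 8.53% and 2.56% of IDR promoter summits and 18.7%, 3.5% and 2.24% of the background regions. The TTTCAG count moved with the distance searched: within 100 bp it was 5 of 7, against 23.2% and 34.6%. TAAT was within 100 bp of 7 of 7 member summits, but also of 69.5% of IDR promoter summits and 83.3% of background regions. A count of 0 of 7 says only that the letters were not in these windows. The G and C content of the 7 windows had a median of 43.6% (18.8 to 53.5), against 46.5% over IDR promoter summits and 37.6% over the background regions. All words of 31 bases within 100 bp of the 7 summits were unique in the genome (100%).

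Genes named ears-2, iars-2 and so on were taken as mitochondrial aminoacyl-tRNA synthetases by name alone. Among these 11, 4 had a pooled summit and 1 was bound (25%, 0.631 to 80.6), against 8.46% of all genes with a pooled summit. This was ears-2, for the glutamyl enzyme, with a signal of 806 (rank 29), a summit 51 bp upstream and ranks of 24 and 39 in replicates 1 and 2. A further 22 names were listed for translation factors and other genes of mitochondrial gene expression and DNA upkeep. Of these, 16 were matched in the annotation by name alone, 10 had a pooled summit and 3 were bound (30%, 6.67 to 65.2), against the same 8.46%. The roles of the genes in both lists were not checked, and some, such as era-1, which had no pooled summit, may not be mitochondrial. mtcu-2, for an enzyme that modifies mitochondrial tRNA, had a signal of 226 with the summit 429 bp upstream. mtss-1, for the single-stranded DNA binding protein of mitochondria, had 225 with the summit 208 bp upstream. mma-1, related to the mammalian RNA-binding protein LRPPRC, had 364, with its summit 726 bp upstream and at the snoRNA gene C14C10.8. The elongation factor genes tufm-1, tsfm-1 and gfm-1 and the recycling factor gene mrrf-1 had a pooled summit and no IDR summit. dap-3, for a small subunit protein outside the naming rule, had no pooled summit. The highest of these 4 bound genes, ears-2, exceeded every member in signal, and mrpl-23 exceeded the other 3.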

How the data were processed

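ChIP-seq regions came from 2 biological replicates of 1 group. Per the deposited file listing, each replicate alignment and both pooled were set against a control alignment to give relaxed lists, from which the authors derived the IDR list, all on ce11. Aligner, peak caller, IDR threshold and versions: not given in the sources used here. Both the signal value and the summit position are the authors' own, as deposited. A further score of unknown scale, which the authors deposited in the ninth column, enters no result. Read totals are not given, so depth is unknown and intervals cover counting error only.

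Genes came from Ensembl release 115 (WBcel235), with symbols also from RefSeq by WormBase identifier, which matched all 71 members; 1 member (mrpl-58) has its symbol in RefSeq only. Positions count from 1. Sequence came from the RefSeq genome of the same assembly. Replicate regions were matched within 100 bp. Counting was done in Python 3.11.15 with scipy 1.17.1, and the window rule was tested on 2000 simulated promoters with all 2000 calls right. No test compares samples, since there is 1 group. Named genes were all bound members, genes sharing their summits, the 10 highest unbound members, members without a pooled summit, and bound genes of 2 further lists. Any others named (mrpl-44, neighbouring genes, first genes of chains, unbound genes of the further lists) were chosen after their values were seen. The members and lists were chosen with earlier results of these data known.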

Additional observations from a re-analysis of the deposited data

How the results depend on the processing

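Counts of bound members moved most with the choice of library and of peak strength. Without replicate 1, 3 of 37 members were bound (8.11%, against 8.02% of all genes), and without replicate 2, 7 of 41 were (17.1%, against 8.6%). In the same order, the large subunit had 2 of 22 and 3 of 23 bound, and the small one 1 of 15 and 4 of 18. Among the IDR peaks of higher signal, 2 of 41 members were bound (4.88%, against 4.59% of all genes), 1 of 24 of the large subunit and 1 of 17 of the small one. There, 1 of 10 genes from the list of translation factors and other mitochondrial genes was bound, mma-1, whose peak was at a snoRNA gene. The median offset of members among these stronger peaks was -501.5 bp from 2 genes. With the window of 2000 bp upstream to 500 bp downstream, 7 of 23 small subunit genes were bound (30.4%, against 8.24% of all genes). With any overlap of peak and window, 7 of 21 were (33.3%, against 8.14%). The synthetase list had 2 of 7 and 2 of 4 bound in these settings. The share over all genes was 9.49% with the narrower window, 4.59% for the peaks of higher signal and 7.38% without small RNA peaks. It was 9.9% when the first gene of a chain was added, an alternative chosen after seeing the data. Within 100 bp of the summit, GAGAGA was at 2 of 7 member summits (28.6%, against 26.7% of IDR promoter summits and 15.3% of background regions) and TTTCAG at 5 (71.4%, against 23.2% and 34.6%). With replicate summits taken within 200 bp, also added later, 2 of 7 peaks were in the highest 1258 of both replicates. The cause of each shift was not tested. Set against the 8 bound members, 7 were shared without replicate 2, 2 without replicate 1 and 8 with transcript starts. No paired analysis was possible because there is 1 group. Depth is unknown, and 7 peaks limit every share given.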

Other observations

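Mitochondrial ribosomal protein genes were spread over the autosomes, with 23 on chromosome III, 15 on I, 12 on II, 11 on IV and 10 on V, and 0 on the X chromosome, which held 254 of the 1258 IDR peaks, the most of any chromosome. Of the members with a pooled summit, 3 of 13 were bound on chromosome III, 2 of 10 on I, 2 of 7 on IV, 1 of 5 on V and 0 of 6 on II. The share over all genes with a pooled summit, on all chromosomes, was 8.46%. These counts are too small to set 1 chromosome against another. The mitochondrial chromosome itself, whose ribosomal RNAs these proteins join, had 0 regions in any of the 4 lists, and whether regions could be called there was not tested.

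Following close same-strand neighbours upstream, a step chosen after seeing the data, 28 members had another gene ahead of them. At the first gene of the chain, 2 of these 28 had an IDR summit that their own window lacked. That share was not counted over all genes. mrpl-54 lies behind clsp-1, the claspin homologue, which had a peak with a signal of 195 (rank 1108) 283 bp upstream of its start. mrps-21 lies behind F29B9.11, with a peak of 248 (rank 488) 481 bp upstream of that gene and 1165 bp upstream of mrps-21. Counting either window gave 10 of 51 members bound (19.6%), against 9.9% of all genes treated the same way. The wider window of 2000 bp upstream to 500 bp downstream added mrpl-20, mrps-21, mrps-28 and mrps-6.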
